A study of Homo sapiens with 4 samples.

Results

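The transcripts of 7 genes that encode sensors and binders of double-stranded RNA were examined in maps of where 2 RNA-binding proteins, HNRNPC and PABPC4, touch RNA. The genes were ADAR, EIF2AK2, IFIH1, RIGI, MAVS, DHX9 and STAU1, and a peak was taken as theirs when it was listed under the NCBI Gene ID of the gene. They held 55 of 72614 distinct peak positions. HNRNPC accounted for 10 of these, from a list of 9107, and PABPC4 for 45, from a list of 63507. The peaks lie in the RNAs made from these genes and say nothing of what the encoded proteins bind.

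All samples came from MDA-MB-231, an established human breast cancer cell line, with no genetic change or drug in any group and no control immunoprecipitation among the samples analysed here. Cells were irradiated at 254 nm with 400 mJ per square centimetre, which bonds proteins to the RNA they contact, and 2 samples were made with an antibody to HNRNPC and 2 with an antibody to PABPC4. HNRNPC was mapped by irCLIP per the labels, although the name of its list says HITS-CLIP, and PABPC4 by PAPERCLIP, in which copying of the RNA is primed on poly(A). The tags of both samples of a protein were pooled before peaks were called, so each protein had 1 list, the spread between samples is unknown and no difference was tested. Peak height is the number of pooled tags at the top of a peak, unscaled for depth, and was set only against other peaks of the same list. The median height was 11 tags for HNRNPC (quartiles 8 and 17) and 38 tags for PABPC4 (quartiles 21 and 66), and the reads per library were not analysed here. Transcript levels were not measured, so a scarce RNA and a weakly bound RNA cannot be told apart.

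Double-stranded RNA marks a cell as infected, but human transcripts also form it where a pair of Alu repeats, short interspersed elements of primate genomes, lie in opposite orientation and fold onto each other. ADAR edits adenosine to inosine in such duplexes, EIF2AK2 (PKR) is a kinase that shuts down translation when it binds them, IFIH1 (MDA5) and RIGI (RIG-I) are cytosolic helicases that sense foreign RNA, MAVS is the mitochondrial adaptor through which both signal to interferon, DHX9 is a nuclear helicase that unwinds duplexes, and STAU1 is a binder of duplexes in 3′ UTRs. HNRNPC is known to bind the U runs of Alu elements transcribed in antisense orientation, and loss of HNRNPC is known to expose such elements. PABPC4 belongs to the cytoplasmic poly(A)-binding proteins.

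The sequences that the results turn on are shown first, as RNA read from the hg38 reference genome, 5′ to 3′ on the strand of the gene. The first set holds the longest U run in or up to 50 nt before 4 of the HNRNPC peaks in antisense Alu elements, with runs of at least 4 U in capitals. Some runs extend beyond that 50-nt window. Inside it the longest runs were 5, 8, 4 and 9 U in the order shown.
EIF2AK2, 6-tag peak in the 3′ UTR, chr2:37107031-37107060, minus strand: uauucUUUUUUUUUUUUUaaagacagaguc
STAU1, 11-tag peak in intron 6, chr20:49127701-49127730, minus strand: cccUUUUUUagUUUUUUUUgUUUUUUagac
STAU1, 11-tag peak in intron 5, chr20:49146103-49146132, minus strand: caccacaccuaaUUUUUguaucuuugguag
STAU1, 39-tag peak in intron 1, chr20:49178583-49178612, minus strand: ugccagacuaaUUUUUUUUUaUUUUUagua

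The second set holds the 3′ ends of the 4 HNRNPC peaks in which GUGUCA, in capitals, was found near the 3′ end (from 15 nt inside the peak to 5 nt after it). The motif was searched because it stood at that place in 32.2% of the whole HNRNPC list, against 0.291% of the PABPC4 list.
ADAR, 30-tag peak in the 3′ UTR, chr1:154582490-154582519, minus strand: aaacgagccGUGUCAgaucgcacaucccug
MAVS, 22-tag peak in the 3′ UTR, chr20:3870020-3870049, plus strand: ggugugaauuggccaGUGUCAgaucucagg
DHX9, 13-tag peak in intron 6, chr1:182855133-182855162, plus strand: ccugaauucucagauauuucugGUGUCAgc
STAU1, 15-tag peak in intron 3, chr20:49163205-49163234, minus strand: cagugaaauaaaugggGUGUCAGUGUCAau

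The third set holds the last 30 nt of PABPC4 peaks in 3′ UTRs that ended in the usual signal for cleavage and polyadenylation, AAUAAA, in capitals.
ADAR, 541 tags, chr1:154582063-154582092, minus strand: aAAUAAAaaaaaaacaagaaucugaauucu
DHX9, 631 tags, chr1:182887718-182887747, plus strand: uaauacaauagaaAAUAAAguauuacaccg
STAU1, 192 tags, chr20:49113342-49113371, minus strand: caaaccauugaucAAUAAAcagcuacuaau
STAU1, 142 tags, chr20:49113527-49113556, minus strand: uaaguguuugucaucAAUAAAugguaauac
EIF2AK2, 20 tags, chr2:37099218-37099247, minus strand: aaauaacacuugaAAUAAAuguuuauuaga
IFIH1, 6 tags, chr2:162267080-162267109, minus strand: agaaucAAUAAAaugauuguuuuacucugc
MAVS, 24 tags, chr20:3875408-3875437, plus strand: cagacucaaaaAAUAAAAAUAAAaacccug

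HNRNPC peaks were found in 5 of the 7 genes, whereas 19.0% of the 20052 protein-coding genes had at least 1. STAU1 held 5 HNRNPC peaks, EIF2AK2 held 2, and ADAR, MAVS and DHX9 held 1 each, while the cytosolic sensors IFIH1 and RIGI held 0. A count of 5 or more, as in STAU1, was reached by 1.83% of protein-coding genes. STAU1 is also the longest of the genes. Per 100 kb of RefSeq gene length the counts were 4.72 for STAU1, 3.46 for EIF2AK2, 3.41 for MAVS, 2.18 for ADAR and 2.06 for DHX9. The RefSeq length of STAU1 is 106 kb, but its HNRNPC peaks all lie within the shorter GENCODE gene of 75029 nt. The map of the genes shows where these peaks stood.

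PABPC4 peaks were found in all 7 genes, against 59.2% of protein-coding genes. STAU1 held 15, DHX9 held 9, EIF2AK2 and MAVS held 7 each, RIGI held 4, ADAR held 2 and IFIH1 held 1. Each of the 7 had at least 1 PABPC4 peak in a 3′ UTR, as had 48.8% of protein-coding genes. For IFIH1 and RIGI this rested on 1 peak each, of 6 and 7 tags.

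**Figure D1:**
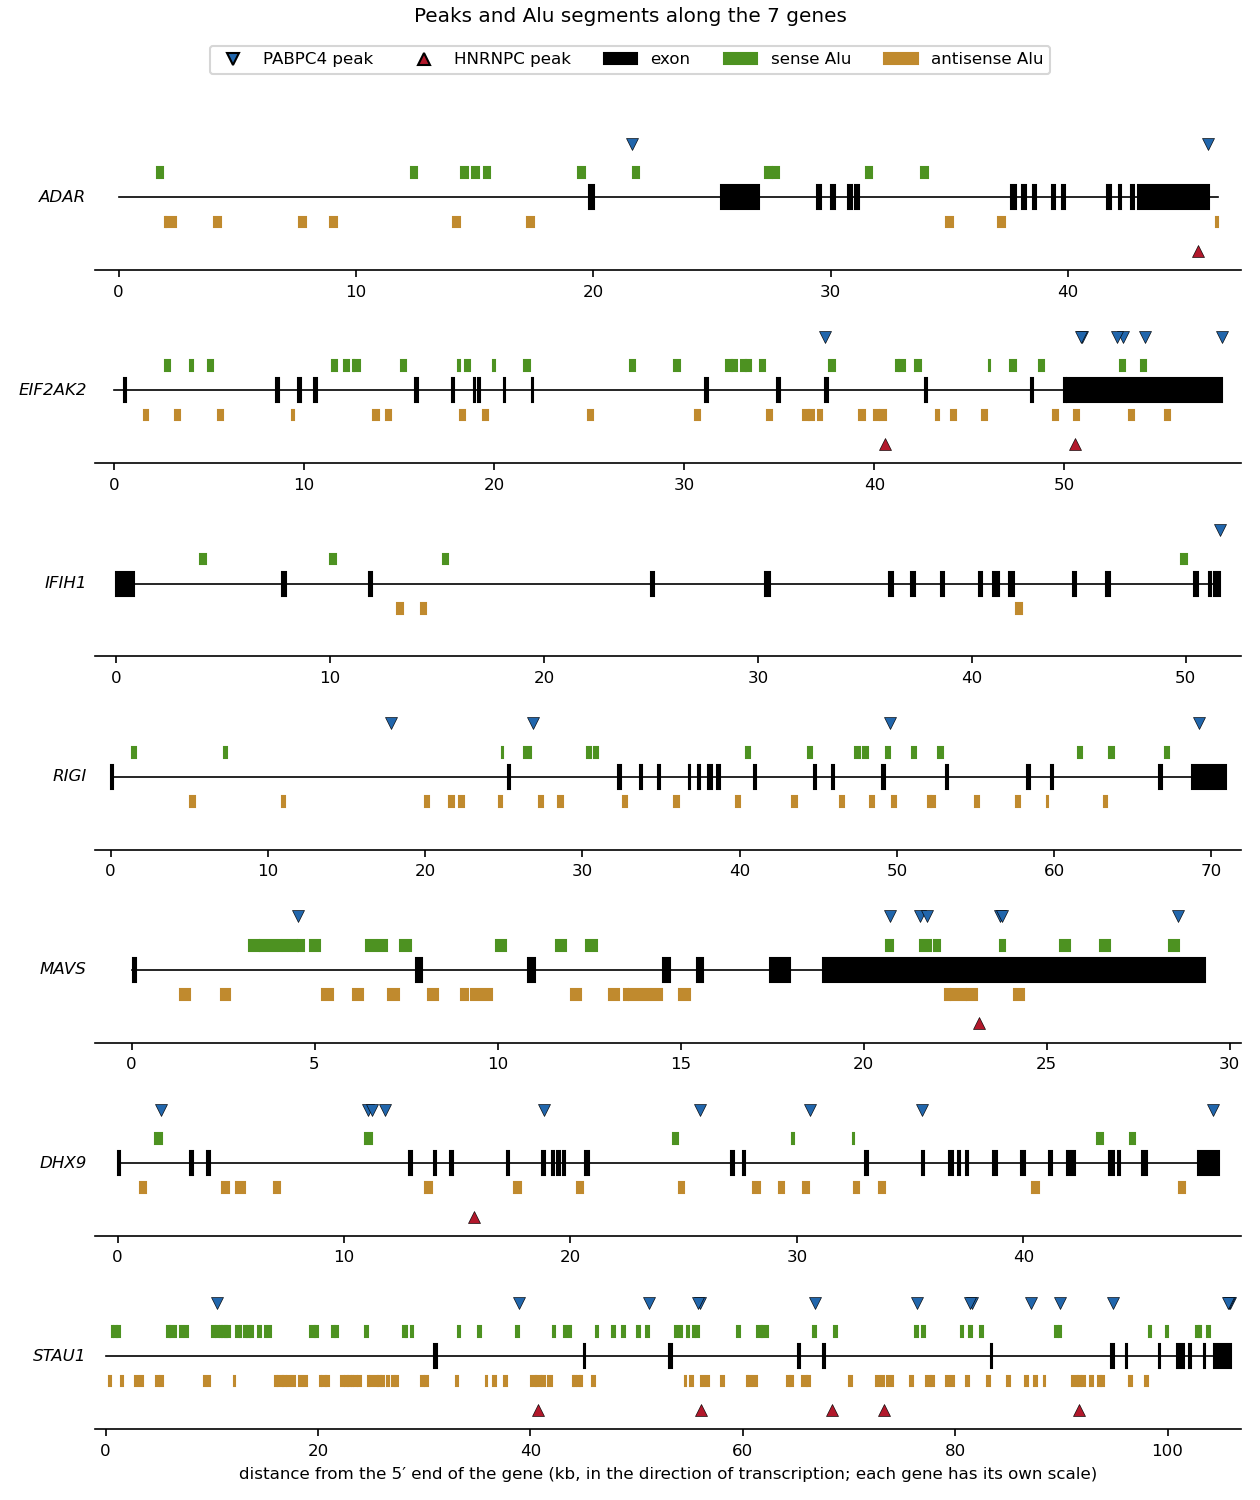
Positions of HNRNPC peaks (red, below) and PABPC4 peaks (blue, above) along the 7 genes, in kb from the 5′ end in the direction of transcription, with the exons of the canonical transcript in black and Alu segments in sense (green) or antisense (ochre) orientation. The 5 HNRNPC peaks of STAU1 lie in introns, and those of ADAR and MAVS lie in the last exon.

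The height of the tallest PABPC4 peak in a gene's 3′ UTRs was used to group genes coarsely by PABPC4 signal in their 3′ UTRs. Such a peak need not mark an mRNA end. That of MAVS lay at the edge of a sense Alu and that of RIGI before an A-rich stretch, both far from annotated ends. Annotated ends are here and below those of protein-coding transcripts only. Across all protein-coding genes, an HNRNPC peak was found in 4.37% of 10276 genes with no PABPC4 peak in a 3′ UTR, 16.0% of 475 genes whose tallest one was under 10 tags, 31.5% of 5599 genes at 10 to 99 tags and 41.2% of 3702 genes at 100 tags or more. IFIH1 (6 tags) and RIGI (7 tags), the genes with 0 HNRNPC peaks, both stood in the class under 10 tags. MAVS (58 tags) and EIF2AK2 (94 tags) stood in the class of 10 to 99, and STAU1 (192 tags), ADAR (541 tags) and DHX9 (631 tags) in the class of 100 or more. The absence of HNRNPC peaks from the sensor genes went with the lowest 3′ UTR heights of the group. For RIGI this held for 3′ UTR peaks only. With introns counted, its tallest PABPC4 peak was 121 tags, above those of EIF2AK2 (94 tags) and MAVS (58 tags). The part of RNA level in the absence of HNRNPC peaks was not tested.

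**Figure D2:**
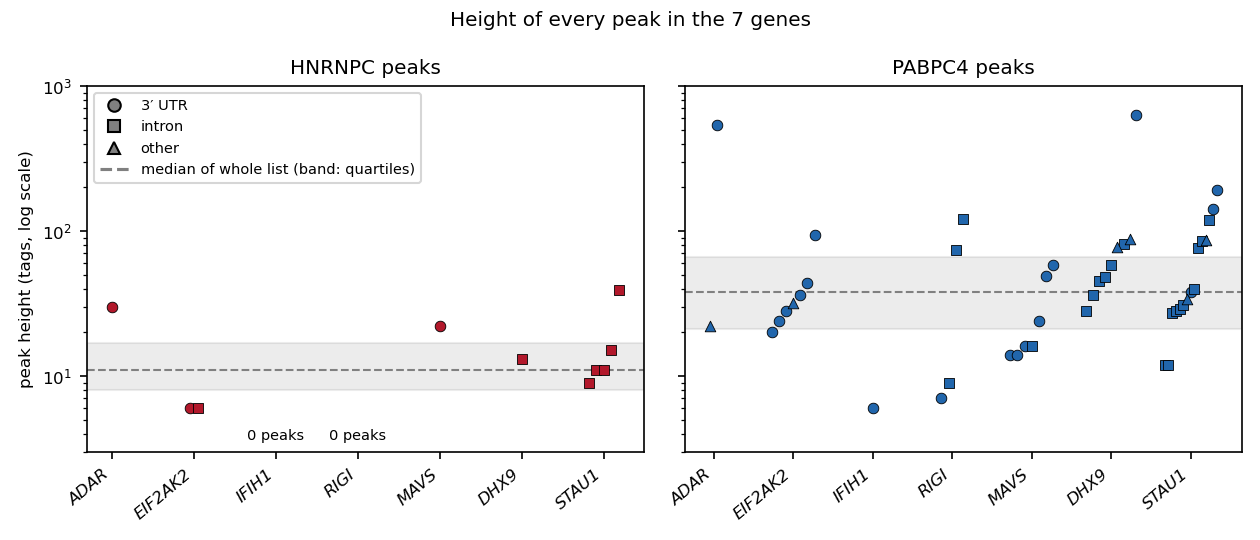
Height in tags (log scale) of each of the 10 HNRNPC and 45 PABPC4 peaks, by gene, with symbols for 3′ UTR (circles), intron (squares) and other places (triangles), the median of each whole list (dashed line) and its quartiles (band). The 541-tag peak of ADAR and the 631-tag peak of DHX9 stand above all others in these genes, and IFIH1 has 1 peak of 6 tags.

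ADAR, the editing enzyme, lies at chr1:154581695-154628013 (hg38, minus strand) and had its HNRNPC peak in the 3′ UTR. The peak, at chr1:154582496-154582594 in exon 15, was 30 tags high where 0.2 were expected by the authors' peak caller, and 90.6% of the HNRNPC list was at or below this height. It lay outside any Alu, its longest U run was 3 nt, and it held GUGUCA near its 3′ end as shown above. The PABPC4 peak at the end of the same 3′ UTR, chr1:154582063-154582166, stood 330 nt downstream and was 541 tags high, 481st in its list. Its 3′ end lay within 4 nt of an annotated transcript end, and AAUAAA began 29 nt before it. This peak held 96.1% of the summed PABPC4 height of ADAR. The other PABPC4 peak of ADAR, 22 tags in intron 1 of the canonical transcript and in a 5′ UTR of another, was followed by an A-rich stretch, defined as a run of at least 6 A, or 10 nt with at least 7 A, in the 50 nt after the peak.

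EIF2AK2, the kinase, lies at chr2:37099210-37157522 (minus strand) and has a 3′ UTR of 8066 nt that carries 3 antisense and 2 sense Alu segments. Its first HNRNPC peak, chr2:37106911-37106997, lay in this 3′ UTR (exon 17) wholly inside an antisense Alu (chr2:37106762-37107040). The second, chr2:37116925-37117006, lay in intron 13 and shared 77 nt with an antisense Alu (chr2:37116930-37117211). Both were 6 tags high with an authors' p of 0.0514, and only 10.0% of the list was at or below that height, so they are the weakest HNRNPC peaks of the group. The nearest sense Alu segment of the gene was 1547 nt upstream of the first Alu and 551 nt downstream of the second. The former lies in an intron and not in the 3′ UTR. Within the 3′ UTR the nearest sense Alu to the first was chr2:37104347-37104619, downstream and further away.

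The 3′ UTR of EIF2AK2 also held 6 PABPC4 peaks, of 94, 36, 44, 28, 24 and 20 tags in transcript order. The tallest, chr2:37106639-37106685, stood 226 nt downstream of the HNRNPC peak and held AUUAAA within its last 40 nt. It was 634 nt past the nearest annotated transcript end, chr2:37107273. That end lies at the very start of the canonical 3′ UTR, so the distance is in effect that from the end of the coding sequence. The 36-tag peak next to it held AUUAAA too, whereas the 44-tag peak was followed by a run of A. The peaks of 28 and 24 tags lay wholly in the sense Alu segments, at 49 and 61 nt before the segment's 3′ end. The last, chr2:37099218-37099265 with 20 tags, ended 8 nt before the annotated end of the longest 3′ UTR and carried AAUAAA. The tallest PABPC4 peak of EIF2AK2 was thus near the start of its 3′ UTR, and the peak at the distal end was the lowest of the 6.

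IFIH1 and RIGI, the helicases that sense foreign RNA, had no HNRNPC peak and 3′ UTR peaks of only a few PABPC4 tags, while RIGI had tall PABPC4 peaks in introns. The IFIH1 gene (chr2:162267074-162318684, minus strand) had 1 peak, chr2:162267080-162267107 of 6 tags, which ended 6 nt before an annotated transcript end in its 129-nt 3′ UTR and carried AAUAAA. Only 1.72% of the PABPC4 list was at or below 6 tags, and an A-rich stretch followed this peak too. RIGI (chr9:32455302-32526208, minus strand) had PABPC4 peaks of 121 tags in intron 2, 74 tags in intron 13, 9 tags in intron 1 and 7 tags in the 3′ UTR. RIGI has 21 antisense and 16 sense Alu segments and IFIH1 has 3 and 4, with no HNRNPC peak in any of them.

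The tall peaks of RIGI were not at its 3′ end. The 3′ UTR peak, chr9:32457004-32457029, lay 692 nt before the nearest annotated end, had an authors' p of 0.02 and was followed by an A-rich stretch. The 121-tag peak, chr9:32499321-32499367, and the 74-tag peak, chr9:32476662-32476697, were also followed by A-rich stretches. The former ended inside a run of A, and the latter was directly followed by one:
RIGI, 30 nt after the 74-tag peak, chr9:32476632-32476661, minus strand: AAAAAAAAAAAAAAAgccguuuucucucua
RIGI thus had no PABPC4 peak that carried AAUAAA or AUUAAA, and the intron peaks made up most of its PABPC4 height (57.3% and 35.1%).

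MAVS, the adaptor, lies at chr20:3846799-3876123 (plus strand) and has the longest canonical 3′ UTR of the group, 9974 nt, with 7 sense and 4 antisense Alu segments. Its HNRNPC peak, chr20:3869885-3870043 in exon 7, was 22 tags high, and 84.5% of the list was at or below that height. The peak was 159 nt wide and only its first 18 nt lay in an antisense Alu (chr20:3869625-3869902), so it adjoins the element more than it covers it, and GUGUCA stood at its 3′ end. A sense Alu (chr20:3870526-3870650) began 623 nt downstream of the antisense Alu.

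Of the 7 PABPC4 peaks of MAVS, all overlapped sense Alu segments. In transcript order the 6 in the 3′ UTR were 14, 58, 16, 14, 49 and 24 tags high, and the other, in intron 1, was 16 tags. The 58-tag peak, chr20:3868314-3868360, shared only 8 nt with the start of its Alu, and the 49-tag peak, chr20:3870558-3870606, lay wholly in one, 515 nt from the HNRNPC peak. The 24-tag peak, chr20:3875366-3875437, was the most distal, 681 nt before the annotated end, and held AAUAAA in an A-rich end as printed above. No peak stood within 50 nt of an annotated end of a protein-coding transcript of MAVS.

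**Figure D3:**
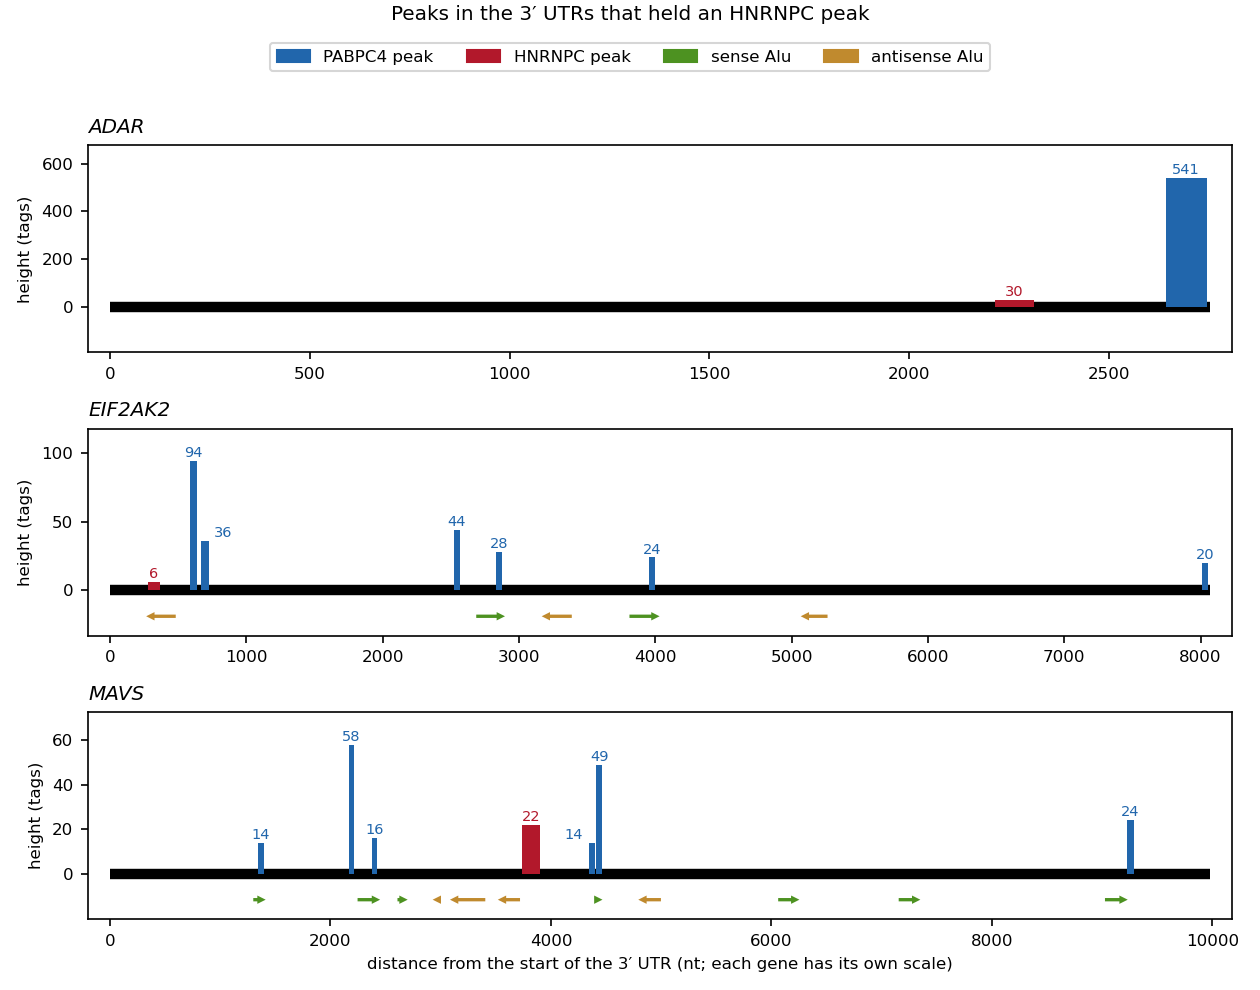
Height in tags of HNRNPC (red) and PABPC4 (blue) peaks along the 3′ UTRs of ADAR, EIF2AK2 and MAVS, in nt from the start of the 3′ UTR, with arrows for sense (green) and antisense (ochre) Alu segments; narrow bars are widened to stay visible. The HNRNPC peak of EIF2AK2 (6 tags) lies over an antisense Alu and that of MAVS (22 tags) starts at the edge of one, while the canonical 3′ UTR of ADAR holds no Alu.

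Alu segments of both orientations in the canonical 3′ UTR were found in EIF2AK2 and MAVS and in 5.22% of the canonical 3′ UTRs searched. Both genes had an HNRNPC peak in the 3′ UTR, as had 7.0% of the 972 genes of this kind. Both also had PABPC4 peaks in a sense Alu of a 3′ UTR, as had 34.7% of them.

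DHX9, the unwinding helicase, lies at chr1:182839347-182887982 (plus strand). Its HNRNPC peak, chr1:182855063-182855156 in intron 6, was 13 tags high and lay outside Alu. GUGUCA stood at its 3′ end, and its longest U run was 4 nt. Its tallest PABPC4 peak, chr1:182887696-182887747, was 631 tags high and 373rd in the list, with AAUAAA 17 nt before its 3′ end. This peak lay in the 3′ UTR but 235 nt before the 1 end annotated for protein-coding transcripts of DHX9. Ends of other transcripts of the gene were not searched. The other 8 PABPC4 peaks of DHX9, of 28 to 88 tags, were all followed by an A-rich stretch, 6 in introns (3 of them in sense Alu) and 2 in coding exons 8 and 16. The 81-tag intron peak is an example of such a stretch at the end of a sense Alu:
DHX9, 30 nt after the 81-tag peak in intron 3, chr1:182850594-182850623, plus strand: cAAAAAAAAAAAAAAAgguuuuaaauggga

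STAU1, the binder of 3′ UTR duplexes, lies at chr20:49113339-49188367 (minus strand) in GENCODE, and further upstream to 49219295 in RefSeq. It is the most Alu-rich of the genes, with 83 antisense segments over 21.5% of its length and 62 sense segments. Its tallest HNRNPC peak, chr20:49178487-49178583 in intron 1, was 39 tags high (94.3% of the list at or below), lay wholly in antisense Alu sequence (chr20:49178334-49178746) and followed a run of 9 U. The peak of 11 tags in intron 6, chr20:49127588-49127685, lay in another antisense Alu (chr20:49127424-49127704) after a run of 8 U, and a peak of 11 tags in intron 5, chr20:49145991-49146069, in a further one (chr20:49145986-49146265). Sense Alu segments lay 1124 nt, 1601 nt and 2886 nt from these elements in the same order.

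The remaining HNRNPC peaks of STAU1 lay outside Alu. The 9-tag peak, chr20:49150853-49150965 in intron 5, had an authors' p of 0.000604, and the 15-tag peak, chr20:49163211-49163288 in intron 3, carried GUGUCA. The latter began 35 nt downstream of a 31-tag PABPC4 peak, chr20:49163323-49163369, the closest pair of the 2 lists in these genes, and an A run lay between them:
STAU1, 30 nt after the 31-tag PABPC4 peak, chr20:49163293-49163322, minus strand: gggucugacuagAAAAAAAAAgggaguggg

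In the 3′ UTR of STAU1, 1542 nt long and free of Alu, PABPC4 peaks of 192 tags (chr20:49113342-49113417) and 142 tags (chr20:49113527-49113575) ended within 1 nt and 4 nt of annotated transcript ends and carried AAUAAA, and a 38-tag peak adjoined the second. No HNRNPC peak lay in it. Of the other 12 PABPC4 peaks, 10 were in introns (12 to 120 tags), the 87-tag peak was in a coding exon and a 34-tag peak was upstream of the GENCODE gene, and 8 of the 12 overlapped sense Alu. The tallest intron peak, 120 tags at chr20:49137684-49137743, ended at the 3′ end of a sense Alu before a run of A.

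Over the 10 HNRNPC peaks, 3 (30.0%, 95% Wilson interval 10.8 to 60.3%) were in 3′ UTRs, against 4.97% of the whole list, and 7 (70.0%, 39.7 to 89.2%) were in introns, against 85.5%. Intervals here cover counting error only, and peaks of a gene are not independent. By genes, 3 of the 7 had an HNRNPC peak in a 3′ UTR, against 1.98% of protein-coding genes. The difference rested on 3 peaks. Those of ADAR and MAVS have GUGUCA near the 3′ end and that of EIF2AK2 has an authors' p of 0.0514. Without peaks that carry GUGUCA, 1 of 6 (16.7%) was in a 3′ UTR against 5.49% of the list. With an authors' p of at most 0.001 it was 2 of 8 (25%) against 4.78%, and under both limits 0 of 4 against 5.42%. Only the EIF2AK2 peak was low for the list. Whether GUGUCA or, in EIF2AK2, the low height produced these peaks was not tested.

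Antisense Alu elements overlapped 6 of the 10 HNRNPC peaks (60%, 31.3 to 83.2%), 3 in STAU1, 2 in EIF2AK2 and the edge case in MAVS, and the background was 33.9% of the list, within the interval. In 3′ UTRs the background was 26.9%. No HNRNPC peak of the genes overlapped a sense Alu (0 of 10, upper limit 27.8%). In 5 of the 6, all but the intron 5 peak of STAU1, a sense Alu of the same gene lay within 2000 nt, as it did for 51.6% of 3013 HNRNPC peaks in antisense Alu over the whole list. Introns were included in this search, and for the 3′ UTR peak of EIF2AK2 the sense Alu lay in an intron. A U run of at least 5 nt in the peak or the 50 nt before it was found in 4 of 10 (40%), near the 39.7% of the list, and GUGUCA in 4 of 10 (40%) beside the list's 32.2%. The 4 peaks with a U run were all in antisense Alu, and the 4 with GUGUCA had U runs of at most 4 nt.

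In the search around each peak, which was run alike for the whole list, sense Alu elements overlapped 20 of the 45 PABPC4 peaks (44.4%, 30.9 to 58.8%), against 36.1% of the list, and antisense Alu elements 0 of 45, against 0.814%. The background differed between introns and 3′ UTRs. In introns 11 of 20 PABPC4 peaks (55.0%) were in sense Alu, near the 54.0% of all intron peaks. A search over the whole genes also placed the 74-tag intron peak of RIGI in a sense Alu, which made these counts 21 of 45 and 12 of 20. In 3′ UTRs 8 of 19 (42.1%) were, against 6.44%, and these were the 6 of MAVS and 2 of EIF2AK2. Without MAVS the share was 15.4%. The peaks in sense Alu ended from 273 nt before to 23 nt after the 3′ end of the Alu segment with which they shared most bases (median 60 nt before), and 11 of the 20 were not followed by an A-rich stretch.

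An A-rich stretch followed 25 of the 45 PABPC4 peaks (55.6%, 41.2 to 69.1%), near the 58.5% of the list, with 14 of 20 in introns (70.0% against 71.2%) and 6 of 19 in 3′ UTRs (31.6% against 31.9%). AAUAAA or AUUAAA stood in the last 40 nt of 9 of the 19 3′ UTR peaks (47.4% against 47.1%) and of 0 of the 20 intron peaks (against 5.96%). Of the 19, 5 (26.3%) ended within 50 nt of an annotated end of a protein-coding transcript, in ADAR, EIF2AK2, IFIH1 and STAU1. RIGI, MAVS and DHX9 had none there. The share at annotated ends over the whole list was not calculated, so whether 26.3% is usual is not known. By place, 20 PABPC4 peaks (44.4%, 30.9 to 58.8%) were in introns, against 60.2% of the list, 19 (42.2%, 29 to 56.7%) in 3′ UTRs, against 29.8%, and 4 (8.89%) in coding exons, against 5.04%.

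**Figure D4:**
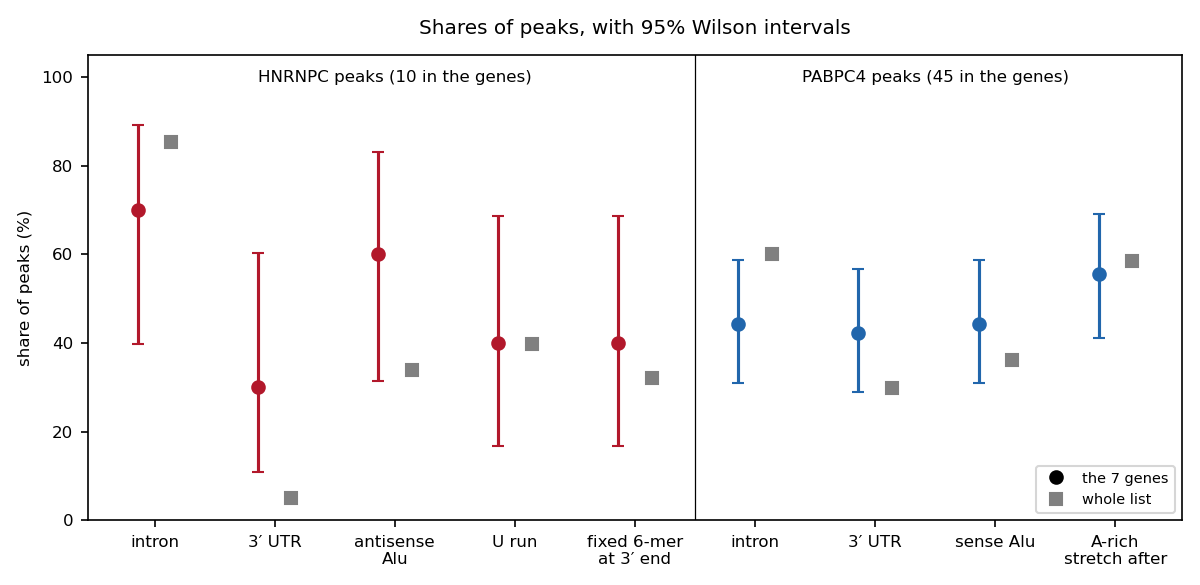
Share of peaks (%) with each property in the 7 genes (circles) and in the whole list (grey squares), with 95% Wilson intervals that cover counting error only; the 6-mer is the motif shown at the 3′ ends of HNRNPC peaks. Among the properties plotted, the list's share lies outside the interval for HNRNPC peaks in 3′ UTRs (30.0% against 4.97%), and for PABPC4 intron peaks (44.4% against 60.2%).

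Among 52 other genes of double-stranded RNA biology, 18 had an HNRNPC peak, 41 a PABPC4 peak and 37 a PABPC4 peak in a 3′ UTR, beside 19.0%, 59.2% and 48.8% of all protein-coding genes. An HNRNPC peak in a 3′ UTR was found in 0 of the 52, and the background of 1.98% is low enough that a count of 0 in 52 genes does not set them apart. HNRNPC peaks were found in 10 of 20 genes for proteins with double-stranded RNA-binding domains and their partners, 3 of 18 further sensors and antiviral effectors, and 5 of 14 regulators of RIGI and MAVS signalling. ADARB1, another editing enzyme, had the most, 4, followed by CTIF, ZFR and DHX15 with 3 each, and by DGCR8, STRBP, TRAF3 and TRIM25 with 2 each. Of the 31 HNRNPC peaks of these genes, 11 were in antisense Alu (33.9% of the whole list), and of the 236 PABPC4 peaks, 83 were in sense Alu (36.1% of the whole list). Tall PABPC4 peaks were found in SON (604 tags), PPP1CA (593), ILF2 (582) and DDX21 (564), below the 631 tags of DHX9. Those of PPP1CA and ILF2 lay in a 3′ UTR, as in DHX9. Those of SON and DDX21 did not, and their tallest 3′ UTR peaks were 222 and 275 tags.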

How the data were processed

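Per the labels, irCLIP (HNRNPC) and PAPERCLIP (PABPC4) were done in MDA-MB-231 cells, with 2 samples per protein. The submitters' processing notes name UMI-tools, cutadapt, BWA 0.7.17 and hg38. The signal in the deposited lists is the height of each peak in unique tags, pooled by the authors over both samples of a protein and called with the CLIP Tool Kit. How PABPC4 tags were processed is not given separately in the sources used here. A peak listed under several gene IDs was counted once per position. The authors' expected heights and p-values were used only to describe or filter peaks.

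Peaks were placed by their centre in GENCODE 44 (3′ UTR, coding sequence, 5′ UTR, non-coding exon, intron, in that order), and 0 peaks ran past a chromosome end. Distances were measured from peak 3′ ends to the annotated ends of protein-coding transcripts, and ends of other transcripts were left out. Alu segments of at least 50 nt were found with BLASTN 2.17.0 (E-value at most 1e-05) against a consensus that MAFFT 7.526 built from the reference. Peaks were searched with 100 nt on each side. Alu detection was tested on simulated data. Python 3.11.15, pandas 2.3.3, pysam 0.24.0 and bedtools 2.31.1 were used, with Wilson 95% intervals from scipy 1.17.1.

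The members and lists were chosen with earlier results of these data known. Given in full were the tallest peak of each list in each gene, every HNRNPC 3′ UTR peak, every PABPC4 3′ UTR peak within 50 nt of an annotated end, and every HNRNPC peak in antisense Alu with a sense Alu within 2000 nt. In the 52 further genes, the 5 with most HNRNPC peaks (with ties) and the 5 with the tallest PABPC4 peak were to be named, of which 1 is not reported here. The U run of 1 peak is likewise not printed. Alternatives covered peak height, the authors' p, GUGUCA peaks, A-rich peaks, search windows and the Alu flank. The 3′ UTR shares under these filters, the leaving out of each gene for the sense Alu share in 3′ UTRs and the Alu search over whole genes were chosen after seeing the data.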

Additional observations from a re-analysis of the deposited data

How the results depend on the processing

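Of 130 recalculated values, 102 stayed within the limits set for them (the 95% interval of a share, or 1.5 times a count). Some of these could not move, such as the 0 HNRNPC peaks of IFIH1 and RIGI under filters that only remove peaks. Leaving out either of these genes could not change the HNRNPC antisense Alu share. The totals and shares that moved further follow. The list's shares under these filters and search settings are not given, except for the HNRNPC 3′ UTR share. The list shares given above are therefore not a background for them. Without GUGUCA peaks the HNRNPC peaks of the genes went from 10 to 6 and the antisense Alu share from 60% to 83.3%. The PABPC4 peaks went from 45 to 22 at or above the list's median height and to 20 without A-rich peaks. Without A-rich peaks IFIH1 kept 0 PABPC4 peaks and RIGI kept 1, in an intron. The sense Alu share of PABPC4 peaks was 44.4%, and 11.1% when the peak was searched without flanks. That search had only the peak's own sequence, and the median width in the list was 47 nt. The search over whole genes, which does not depend on peak width, gave 46.7%. The A-rich share was 35.6% when only 6 A in a row counted. The U run share of 40% became 80% with 4 U and 0.0% when only the peak was searched. The share of antisense Alu peaks with a sense Alu nearby, 83.3% within 2000 nt, was 0.0% within 500 nt and 100% within 5000 nt. The HNRNPC 3′ UTR share fell from 30.0% to 0.0% under the authors' p limit together with the removal of GUGUCA peaks, and the sense Alu share of PABPC4 3′ UTR peaks fell from 42.1% to 15.4% without MAVS. With an authors' p of at most 0.001, EIF2AK2 had 0 HNRNPC peaks. No paired analysis was possible because both samples of a protein were pooled into 1 list, so no sample could be left out either. Heights of a few tags limit what the PABPC4 peak of IFIH1, the 3′ UTR peak of RIGI and the HNRNPC peaks of EIF2AK2 can show.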
